A study of Leucoraja erinaceus with 4 samples.

Results

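The ampullary receptor cells of an adult little skate (Leucoraja erinaceus) were compared with the ampullary canals and the body skin of the same animal, the pair of nonsensory epithelia in the series. The comparison used 3 of the 4 RNA sequencing libraries of the series, chosen by their tissue labels, and left out the liver. It covered 34239 of 186064 assembled genes, those with at least 10 reads in any of the 3 libraries. Each tissue gave 1 poly(A)-selected, stranded library made from 1 µg of total RNA. The receptor-cell sample is labelled as electroreceptor cells, the canals as the structural tubes that lead to them, and the skin as skin without electroreceptors. Sex and age beyond adulthood are not given in the labels.

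Skates sense weak electric fields with the ampullae of Lorenzini. Each ampulla is a small sac whose wall holds electroreceptor cells among supporting cells, and a jelly-filled canal connects the sac to a pore in the skin. Electroreceptor cells are relatives of the hair cells of the inner ear and lateral line: a voltage-gated calcium channel and a calcium-activated potassium channel shape their voltage oscillations, and ribbon synapses pass the signal to a sensory nerve. The canal wall and the body skin are epithelia that do not transduce electric fields. Setting the receptor tissue against both at once asks which transcripts separate it from the tube of its own organ and from the outer surface alike.

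The identifiers are numbers given by a transcriptome assembly, and 0 of them matched a gene of the reference gene table (23250 genes). Gene names, markers of electroreceptor, supporting, nerve or epithelial cells and pathways were therefore not analysed here, and the tissue labels could not be checked against defining markers. A difference belongs to the tissue as dissected, and in such bulk samples fewer cells of a type and less RNA per cell cannot be told apart. The libraries had similar depths, with 12240037 reads for receptor cells, 12303108 for canals and 11716890 for skin. TMM factors over these 3 libraries were 1.297 for receptor cells, 0.837 for canals and 0.921 for skin. They scale library sizes on the assumption that most assembled genes do not differ, which was not tested here. Levels are reads per 1000000 of the scaled library size (CPM). Assembled genes were sorted by fold after adding 0.5 CPM to every value and taking log2, so folds of faint transcripts are underestimated. There is no replicate, so there is no test of any difference and no p-value. All intervals and limits describe read counting alone.

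Receptor cells stood apart from both epithelia more often by having more of a transcript than by having less. An assembled gene was counted as higher when its receptor value was at least 4-fold above the higher of canals and skin, and as lower when it was at least 4-fold below the lower of them. By this rule 1857 assembled genes were higher in receptor cells (5.42% of those tested) and 442 were lower (1.29%). The median difference of the 1857 from the higher epithelium was 2.85 on the log2 scale, against -0.53 over all 34239. For the 442, the median difference from the lower epithelium was -2.42, against 0.61 over all. The rule itself places the medians of both sets past 4-fold, so they are a description of the members only. At a rule of 2-fold, 5235 were higher (15.3%) and 1958 lower (5.72%). At 16-fold, 428 were higher (1.25%) and 13 lower (0.038%). The nearest folds on either side of the 4-fold limit were 4.0013 and 3.9951 for higher assembled genes and 4.0017 and 3.9986 for lower ones.

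The excess of higher over lower depended in size on the scaling. Higher assembled genes made up 80.8% of those past 4-fold with TMM factors, 93.0% with library totals, 91.1% with totals that omit the 50 most dominant assembled genes and 93.5% with the deposited TPM. The median of all differences from canals was 0.09 with TMM factors and 0.58 with library totals, and that from skin was 0.15 and 0.52. The 1857 became 2695 with library totals, and the 442 became 202. An increase needs a minimum level in 1 library and a decrease needs it in both others, so the rule was also applied to each epithelium. Applied to canals, it counted 1839 assembled genes above both receptor cells and skin (5.37%) and 781 below both (2.28%). Applied to skin, it counted 2314 above both receptor cells and canals (6.76%) and 1009 below both (2.95%). The ratio of above to below was 4.2 for receptor cells, 2.35 for canals and 2.29 for skin. With the 11 other settings it was 3.87 to 14.3 in receptor cells, 0.791 to 3.56 in canals and 1.35 to 3.16 in skin. No test of this difference between libraries is possible with 1 library each. With 0 reads on the other side, the fewest reads that pass 4-fold are 24 for receptor cells, 16 for canals and 17 for skin.

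**Figure D1:**
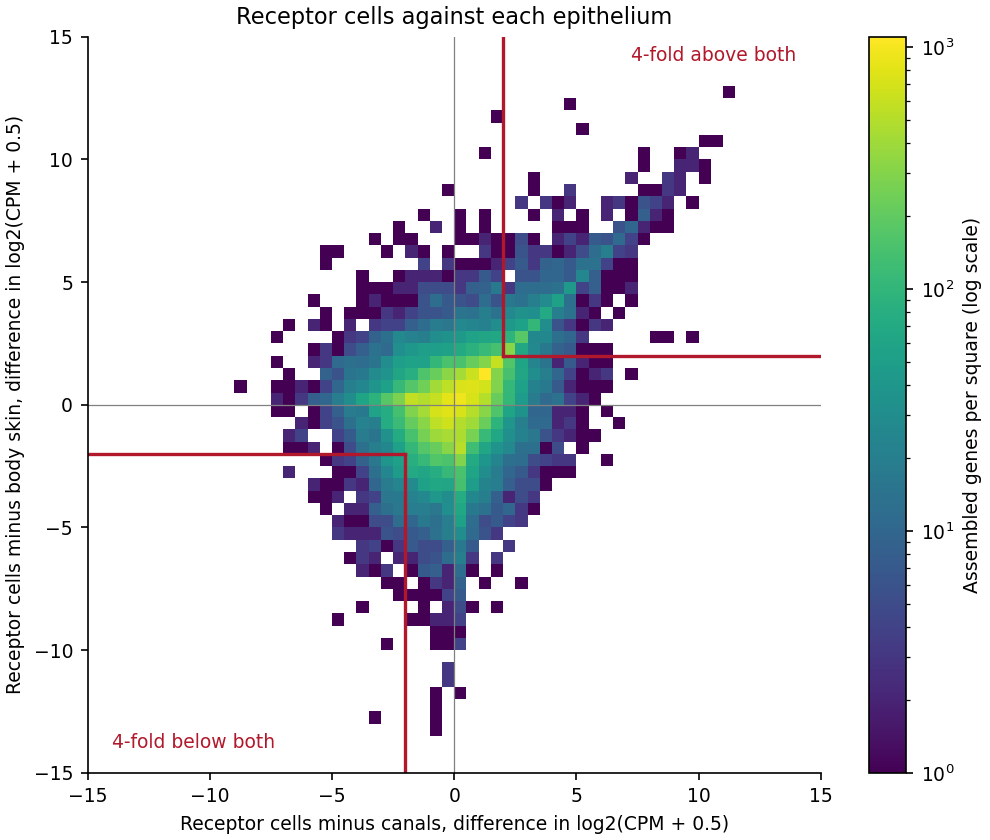
Each square counts assembled genes by the difference of receptor cells from canals (horizontal) and from body skin (vertical), both in log2(CPM + 0.5), with colour on a log scale. The red corners mark the 1857 assembled genes at least 4-fold above both epithelia (upper right) and the 442 at least 4-fold below both (lower left). The upper right corner extends past 10 on both axes. Both axes share the receptor-cell library, so points follow the diagonal in part by construction.

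**Figure D2:**
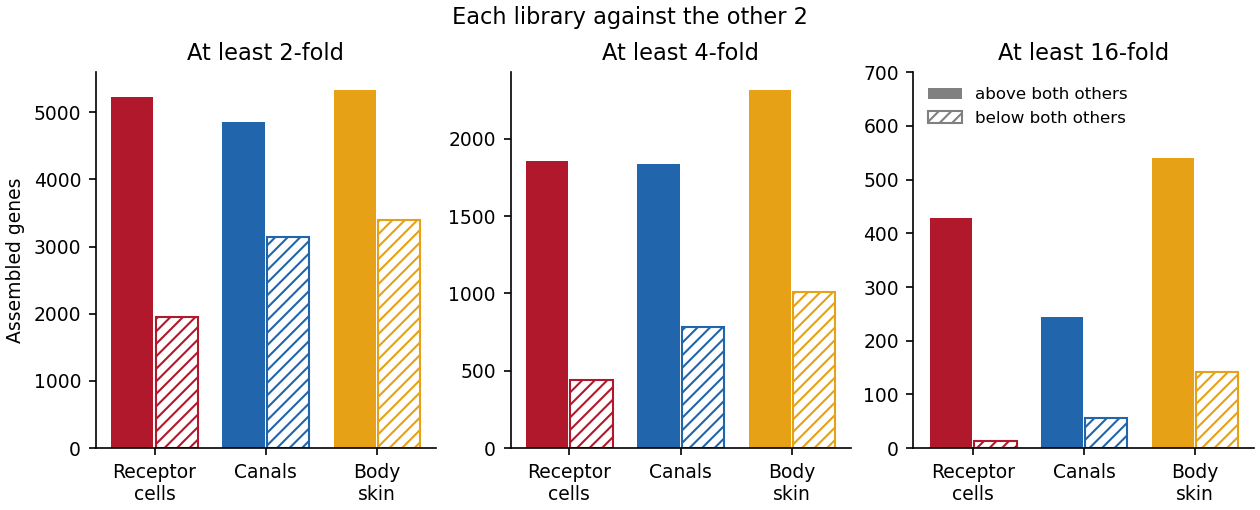
Bars give the number of assembled genes above (filled) or below (hatched) both other libraries at 2-, 4- and 16-fold, for receptor cells, canals and body skin, on a separate vertical scale per panel. The hatched bar of receptor cells is the lowest of the 3 hatched bars in each panel, with 13 assembled genes at 16-fold.

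The 1857 higher assembled genes took 14.5% of the receptor-cell reads (exact binomial 95% interval 14.47 to 14.51), against 0.431% in canals (0.4272 to 0.4345) and 0.371% in skin (0.3673 to 0.3743). The 4-fold rule chose the members from these same reads, so the contrast follows in part from the choice. The intervals leave that choice out. By the same rule, the assembled genes above both others took 24.7% of the reads in canals and 32.8% of those in skin, both more than the 14.5% in receptor cells with these TMM factors. Members of the receptor-cell set ranged from faint to abundant. At least 100 reads in receptor cells were found for 1097 of them, at least 1000 for 290 and at least 10000 for 25. The median member had 142 receptor-cell reads, 2 canal reads and 1 skin read. Per length, the median member had 16.1 TPM for receptor cells, 0.14 for canals and 0.08 for skin, against 5.78, 2.85 and 3.65 TPM over all tested. Reads were concentrated on few members: the 10 most abundant held 28% of the set's receptor-cell reads and the 100 most abundant 63.9%. By fold over the higher epithelium, 1030 lay between 4 and 8, 399 between 8 and 16, 298 between 16 and 64, 100 between 64 and 256, and 30 beyond 256. Those 30 alone took 2.71% of all receptor-cell reads. The 4-fold limit was cleared by the nearer end of the 95% counting interval against both epithelia for 1530 of the 1857 (4.47% of those tested).

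The 10 most abundant members of the higher set differed widely in how far they were from the epithelia. By reads, the first was a 1638-base assembled gene with 124629 receptor-cell reads, 3487 canal reads and 12 skin reads. It took 1.02% of the receptor-cell reads. Its level in canals, 338.7 CPM, was far above its level in skin, 1.112 CPM, while receptor cells had 7851 CPM. The third, of 7258 bases, had 77303 receptor-cell reads, 1041 canal reads and 724 skin reads, so that here the 2 epithelia were close to each other. The eighth, of 987 bases, had 22804 receptor-cell reads, 43 canal reads and 1989 skin reads, the opposite order of the epithelia.

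Members given by identifier, at most 2 in each direction, are those whose counting interval ended farthest from no difference against the nearer epithelium. Their ratios and intervals leave out the added 0.5 CPM. Assembled gene c131483_g1 (729 bases, 1 transcript) had 107200 receptor-cell reads, 27 canal reads and 7 skin reads. In CPM these are 6753 for receptor cells, 2.622 for canals and 0.6484 for skin. Receptor cells had 2575-fold more of it than canals (95% interval 1770 to 3908) and 10420-fold more than skin (5055 to 25910). Per length it reached 19600 TPM for receptor cells, 4.45 for canals and 1.32 for skin. Assembled gene c80895_g1 (2209 bases, 1 transcript) had 21776 reads in receptor cells and 4 in each epithelium. Receptor cells had 3531-fold more of it than canals (1379 to 12960) and 3703-fold more than skin (1446 to 13590). Its levels were 1021 TPM for receptor cells, 0.17 for canals and 0.19 for skin. For both, nearly all reads of the 3 libraries came from receptor cells. Under the 7 alternatives run for them, the log2 difference from the nearer epithelium was 10.51 to 11.95 for c131483_g1. For c80895_g1 it was 9.17 to 11.46. Members chosen for so large a difference could hardly change direction, so these ranges are a description.

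**Figure D3:**
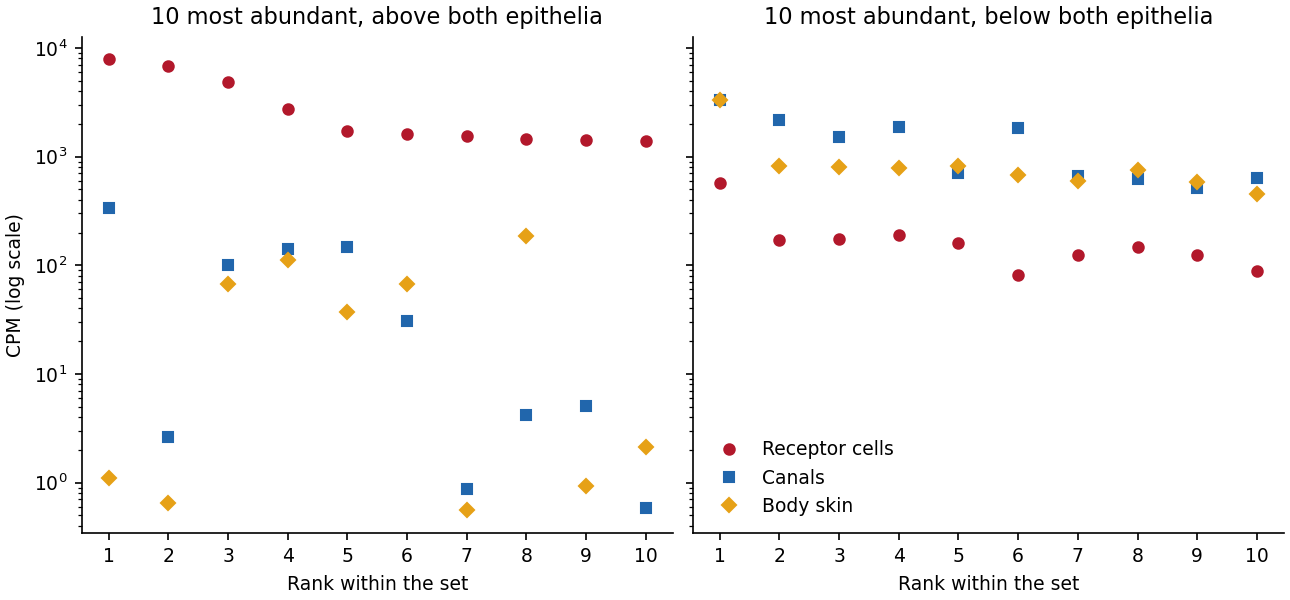
Points give CPM (log scale) in receptor cells, canals and body skin for the 10 most abundant assembled genes of each set, ranked by receptor-cell reads (left, above both epithelia) or by the lower of the 2 epithelial read counts (right, below both). On the left the epithelial points spread from 338.7 CPM to below 1 CPM while receptor cells stay above 1000. On the right the receptor-cell points lie between 81.02 and 569.2 CPM, under both epithelia.

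No read in either epithelium was found for 542 of the 1857, and 140 of these had at least 100 reads in receptor cells. Taking 10 reads in 1 library and 0 in the other 2 as the rule, receptor cells had 1481 such assembled genes of the 34239 tested, canals 499 and skin 641. At 100 reads the numbers were 140 for receptor cells, 18 for canals and 91 for skin. Of the 1481, 542 were in the higher set, since with 0 epithelial reads the 4-fold rule needs 24 receptor-cell reads. These minimums are in unscaled reads, and 10 reads stand for a lower CPM in receptor cells than in either epithelium. The reverse pattern, 0 reads in receptor cells and at least 10 in each epithelium, was found for 37. The corresponding number was 459 for canals and 389 for skin. A count of 0 allows up to 3 reads, which is 0.189 CPM for receptor cells, 0.291 for canals and 0.278 for skin. Receptor cells also had the broadest library, with 1 or more reads on 98988 assembled genes, against 65961 for canals and 68576 for skin. The part of this breadth in the counts of 0 was not tested.

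Among the 290 higher members with at least 1000 receptor-cell reads, the epithelial level was no fixed fraction of the receptor level. The canal level ran from 0% to 24.5% of the receptor level, with quartiles at 0.22%, 2.78% and 11.1%. The skin level ran from 0% to 24.5%, with quartiles at 0.0975%, 1.02% and 7.38%. The upper end is set by the 4-fold rule. No canal read was found for 29 of the 290 and no skin read for 37, while 76 exceeded 10% of the receptor level in canals and 62 did so in skin. Over all 1857, canals were the higher epithelium for 816 (43.9%), skin for 499 (26.9%), and 542 had 0 reads in both. At most 3 reads in each epithelium were found for 976 of the 1857, which include these 542. For such faint counts the order rests on few reads and on the scaling. Equal counts above 0 make canals the higher epithelium with TMM factors and skin with library totals. Over all assembled genes tested the split was 47.5% for canals and 48.2% for skin. With library totals, canals were the higher epithelium for 40.6% of the higher set and skin for 33.1%, against 43.9% and 51.7% of all tested.

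The 442 lower assembled genes took 0.486% of the receptor-cell reads (0.4822 to 0.49), against 2.46% in canals (2.454 to 2.471) and 5.17% in skin (5.157 to 5.182). Here too the same reads chose the members, and the intervals leave that choice out. The skin share rested in part on a single assembled gene of 1764 bases, with 34 receptor-cell reads, 226 canal reads and 195895 skin reads. Without it the set took 3.5% of the skin reads. The median member had 26 receptor-cell reads, 161 canal reads and 256.5 skin reads. Per length, the median was 1.73 TPM for receptor cells, 10.3 for canals and 17.5 for skin. Most were reduced rather than undetected: 15 of the 442 had no receptor-cell read and 89 had at least 100. By fold below the lower epithelium, 362 lay between 4 and 8, 67 between 8 and 16, and 13 between 16 and 64. These folds include the added 0.5 CPM. The nearer end of the counting interval was past 4-fold against both epithelia for 323 of them; by that criterion alone 335 were lower (0.978%).

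Assembled gene c84555_g1 (1931 bases) had 1 receptor-cell read, 132 canal reads and 240 skin reads. Scaled for library size, receptor cells were lower than canals by a ratio of 203.5 (35.9 to 8098) and lower than skin by a ratio of 352.9 (62.73 to 14000). Assembled gene c72467_g1 (1299 bases) had 3 receptor-cell reads, 183 canal reads and 294 skin reads. The ratio of canals to receptor cells was 94.04 (31.68 to 460.2), and that of skin to receptor cells was 144.1 (48.82 to 702.7). These intervals are wide because the receptor-cell counts are 1 and 3. The ratios leave out the added 0.5 CPM and are thus larger than the folds used for sorting. With it, the log2 differences from canals, the nearer epithelium, were -4.56 for c84555_g1 and -4.73 for c72467_g1. Members of the lower set that were abundant in both epithelia were less extreme. Ranked by the lower of the 2 epithelial read counts, the first, of 602 bases, had 9035 receptor-cell reads, 34478 canal reads and 35524 skin reads. Its levels were 569.2 CPM in receptor cells, 3349 CPM in canals and 3291 CPM in skin. Its receptor level was 5.78-fold below the lower epithelium. Of the 39 lower members with at least 1000 reads in each epithelium, receptor cells had 4.33% to 24.1% of the canal level (median 15.5%) and 1.8% to 24.7% of the skin level (median 14.6%). Skin was the higher epithelium for 284 of the 442 (64.3%) and canals for 158 (35.7%), against 48.2% and 47.5% of all tested. With library totals the split over all tested was 51.7% for skin and 43.9% for canals, and that of the lower set is not given here.

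Most of the assembled genes tested did not separate receptor cells from both epithelia in the same direction. Receptor cells were within 2-fold of both epithelia for 10303 assembled genes (30.1%), which took 31.4% of the reads of receptor cells, 22.3% of those of canals and 23.3% of those of skin. A further 3378 were 2- to 4-fold above both, with 8.1% of the receptor-cell reads against 1.51% in canals and 1.65% in skin. Another 1516 were 2- to 4-fold below both, with 3.48% of the reads of receptor cells, 7.52% of those of canals and 13% of those of skin. The remaining 16743, with 40.8% of the receptor-cell reads, lay between the epithelia or differed from 1 of them only. Those between include assembled genes that differed from both epithelia in opposite directions. The 16743 took 65.1% of the reads of canals and 55.8% of those of skin. The bulk of epithelial reads thus fell on assembled genes that did not set receptor cells apart from both in the same direction.

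**Figure D4:**
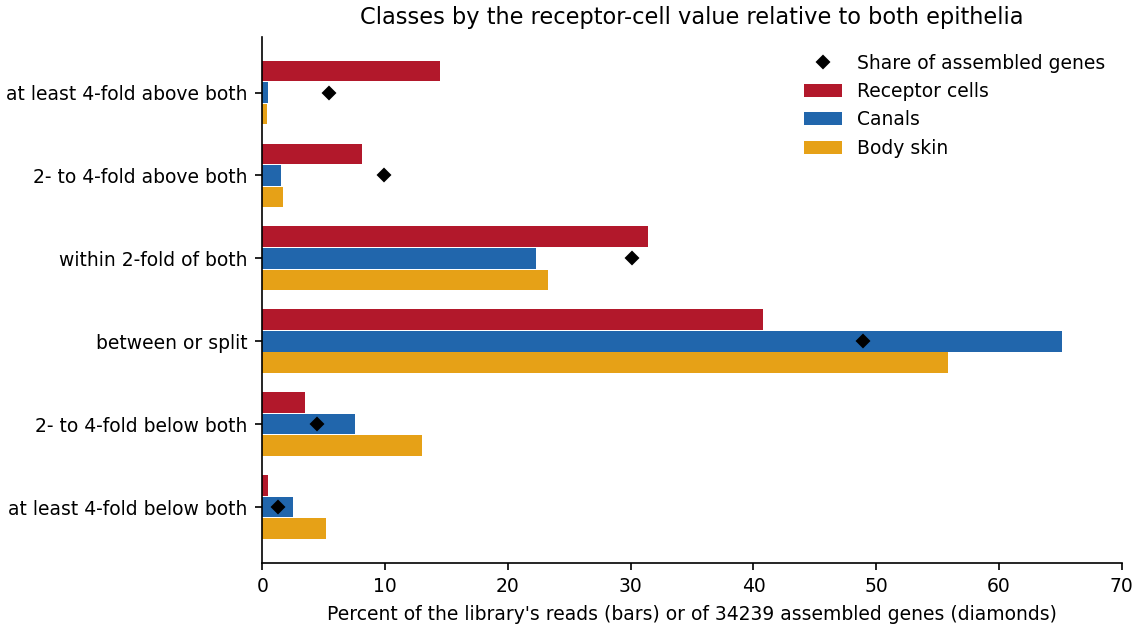
Bars give the percent of reads of receptor cells, canals and body skin in 6 exclusive classes, from at least 4-fold above both epithelia to at least 4-fold below both, and diamonds the percent of the 34239 assembled genes. The top class holds 5.42% of the assembled genes but 14.5% of the receptor-cell reads, against under 1% of the reads of either epithelium. The classes are defined by the levels in these same libraries, so this contrast follows in part from the choice.

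The most abundant transcripts of receptor cells were spread over these classes. Ranking by the receptor-cell level, which the 4-fold rule also uses, favours the higher classes, so the counts are a description only. Of the 100 assembled genes with the most receptor-cell reads, 22 were at least 4-fold above both epithelia, 11 were 2- to 4-fold above, 13 were within 2-fold of both and 0 were at least 4-fold below. Ranked per length by TPM, 10 of the top 100 were at least 4-fold above both epithelia, 2 were at least 4-fold below both and 75 lay between them or differed from only 1. By mean level over the 3 libraries, the share at least 4-fold higher was 3.78% below 1 CPM, 7.37% from 1 to 10, 4.47% from 10 to 100, 4.84% from 100 to 1000 and 2.73% (3 of 110) above 1000. The share at least 4-fold lower was 0%, 1.25%, 2.42%, 3.05% and 2.73% over the same classes. Below a mean of 1 CPM the rule cannot count a decrease, since with 0 receptor-cell reads it needs 16 canal reads and 17 skin reads.

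The position of receptor cells was also described where the epithelia themselves differed. Choosing assembled genes whose epithelial values lie far apart favours a receptor-cell value between them and can favour one nearer the lower, so these shares are a description. Over all tested 38.8% lay between. For 3652 assembled genes whose canal level was 4 or more times the skin level, receptor cells were between the epithelia for 78.1%, above both for 10.6% and below both for 11.3%. They were nearer to skin for 63.7% and nearer to canals for 36.3%, with a median difference of -2.02 from canals and 1.07 from skin on the log2 scale. For 3822 assembled genes whose skin level was 4 or more times the canal level, receptor cells were between for 70.2%, above both for 8.11% and below both for 21.7%. Here they were nearer to canals for 71.9% and nearer to skin for 28.1%, with medians of 0.59 from canals and -2.35 from skin. In both cases receptor cells more often lay nearer to the epithelium with the lower level. With library totals these shares were 51.8% (nearer to skin) and 62.3% (nearer to canals). Over all assembled genes they were nearer to canals for 49.3% and to skin for 46.4%.

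Measures that the rule did not use are given for both sets beside their values over all assembled genes tested. The liver library took no part in the choice of members. Liver reads were absent for 866 of the 1857 higher assembled genes (46.6%), for 31 of the 442 lower ones (7.01%) and for 18.7% of all tested. The high sets of the epithelia by the same rule also exceeded that 18.7%, with 36.3% (canals, 668 of 1839) and 30.4% (skin, 703 of 2314). At least 10 liver reads were found for 22.2% of the higher set, 73.3% of the lower set and 51.1% of all. Because absence depends on abundance, the same was counted among assembled genes with at least 100 reads in any of the 3 libraries. This minimum does not make the sets equally abundant, and all 1097 higher members that met it did so in receptor cells. There, 34% of the higher set (373 of 1097), 6.14% of the lower set (21 of 342) and 6.91% of all 15099 had no liver read. The high sets of the epithelia, chosen by the same rule and the same minimum of 100 reads, had 19% (canals, 194 of 1022) and 18.7% (skin, 271 of 1451). That minimum is in unscaled reads, and 100 reads stand for a lower CPM in receptor cells than in either epithelium. The receptor-cell set can thus hold fainter members, and the part of this in the 34% was not tested. With TMM factors over 4 libraries, the liver level was at least 4-fold below the receptor level for 1616 of the 1857 (87%), against 30.7% of all tested. It was at or above the receptor level for 350 of the 442 lower assembled genes (79.2%), against 40.9% of all. These last shares use the receptor-cell library, which also chose the members, and are given as a description.

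**Figure D5:**
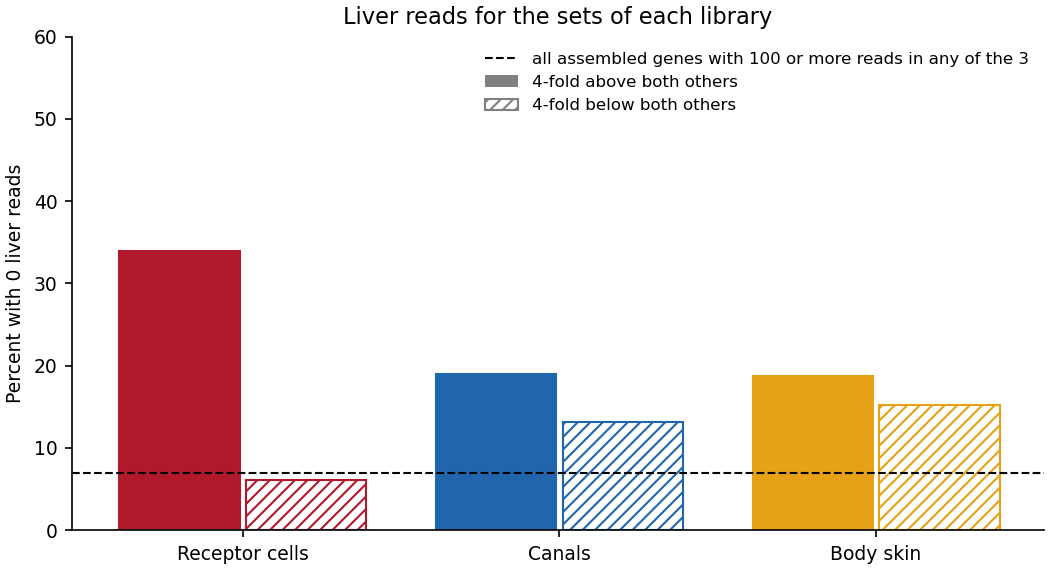
Bars give the percent of assembled genes with 0 liver reads among those at least 4-fold above (filled) or below (hatched) both others in receptor cells, canals and body skin, with at least 100 reads in any of the 3. The dashed line is the 6.91% of all such assembled genes. Receptor cells have the highest filled bar, 34%, and the lowest hatched bar, 6.14%. The minimum is in unscaled reads and stands for a lower CPM in receptor cells than in either epithelium.

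Assembled length was also outside the rule. The lengths are those deposited with the receptor-cell library, which took part in choosing the members. The median assembled gene was 1250 bases in the higher set (quartiles 773 and 2084), 1734 in the lower set (1018 and 2515) and 1080 over all tested. Longer assembled genes collect more reads and pass the minimum more easily. With at least 100 reads in any library the medians were 1688 bases for the higher set, 1922 for the lower set and 1967 for all. The high sets of the epithelia by the same rule had shorter medians, 1023 bases for canals and 1185 for skin. At the minimum of 100 reads these were 1570 for canals and 1662 for skin, so a short higher set was not particular to receptor cells. Among all assembled genes with at least 100 reads in any library, the share at least 4-fold higher in receptor cells was 14.5% under 500 bases (58 of 401). It was 10.2% from 500 to 1000, 7.09% from 1000 to 2000, 6.23% from 2000 to 4000 and 5.82% from 4000 bases upward. The share at least 4-fold lower was 2.99%, 2.44%, 2.37%, 2.2% and 1.84% over the same classes. Both shares were highest in the shortest class and lowest in the longest. More than 1 transcript was assembled for 42.9% of the higher set, 50.2% of the lower set and 39.6% of all. With at least 100 reads in any library these shares were 51.9%, 48.2% and 51%, so the excess over all was not kept.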

How the data were processed

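RNA from 1 animal was sequenced with 1 library per tissue. RSEM 1.1.17, named in the submitters' processing notes, gave the values per assembled gene. Neither assembler nor aligner nor filters are given in the sources at hand. Per the file headers, the authors deposited expected counts (estimated reads, not normalized), TPM and FPKM (scaled for length and depth), and lengths in bases. FPKM was not used. Between 250 and 287 expected counts per library were more than 0.001 from a whole number, and all were rounded. RSEM divides reads among similar sequences, so an assembled gene can be a fragment or close copy, and its count is uncertain where copies exist.

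TMM factors came from edgeR 4.0.16 (R 4.3.3) over receptor cells, canals and skin, on assembled genes with 10 or more reads in any of them, which held at least 98.72% of each library's reads. The pseudocount was 0.5 CPM and the limit 4-fold. Ratio intervals are exact (Clopper-Pearson, 95%, SciPy 1.17.1), and 0 reads were taken to allow 3. At these depths an exact binomial interval around a share of reads is at most 0.0573 percentage points wide. PCR copies are not independent molecules, so intervals may be too narrow. The code was tested on simulated data. The members, limits and settings were chosen with earlier results of these data known. Identifiers named had 100 or more reads in receptor cells (higher) or in both epithelia (lower) and the interval end farthest from no difference, at most 2 per direction. DESeq2 1.42.0 size factors, library totals, TPM, other pseudocounts, minimum reads, interval ends, cluster sums and, chosen after seeing the data, a minimum length of 300 bases were alternatives.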

Additional observations from a re-analysis of the deposited data

Results flagged for a closer look

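Receptor cells differed from the 2 epithelia in opposite directions for some assembled genes, and these differences could not be tested with 1 library per tissue. At 4-fold from each, such a pattern needs epithelia at least 16-fold apart. How many assembled genes meet that is not given here. For 118 of the 34239 tested, receptor cells were at least 4-fold above canals and at least 4-fold below skin. Their medians were 121 receptor-cell reads, 6 canal reads and 937.5 skin reads. They took 0.592% of the reads of receptor cells, 0.0331% of those of canals and 3.45% of those of skin. For 179 of the 34239, receptor cells were at least 4-fold below canals and at least 4-fold above skin. Their medians were 143 receptor-cell reads, 846 canal reads and 9 skin reads. They took 0.809% of the reads of receptor cells, 9.25% of those of canals and 0.0536% of those of skin.

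The liver library, which the comparison did not use, had more than the 3 reads that a count of 0 allows for 619 of the 1857 assembled genes that receptor cells had at 4-fold or more above both epithelia. This is 33.3% of the set, against 65.5% of all tested. For 59 of them, or 3.18%, the liver level was at or above the receptor-cell level with TMM factors over 4 libraries, against 40.9% of all tested, a share that the choice by high receptor levels lowers. Both counts are thus listed because liver reads exist, and both shares are below those of all tested.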

How the results depend on the processing

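No paired analysis was possible because there is a single library per tissue, which also leaves no replicate to omit. Of 83 values that the 7 counts took under the alternatives, 59 were within 1.5 times the reported count. DESeq2 size factors, TMM factors over 4 libraries, cluster sums, the interval end and the minimum length moved none of the counts they were run on further than that. In receptor cells, the number above both epithelia was 2859 with totals without the 50 dominant assembled genes, 4215 with TPM, 3726 with a pseudocount of 0.1, 892 with a pseudocount of 2 and 1154 with a minimum of 100 reads. The number below both was 202 with library totals, 280 without the 50 dominant, 952 with a pseudocount of 0.1 and 185 with 2. The number within 2-fold of both was 20399 with a pseudocount of 2, 107668 with a minimum of 1 read and 5066 with 100. In canals, the number above both others was 2869 with a pseudocount of 0.1, 944 with 2 and 966 with a minimum of 100 reads, and the number below both was 1189 without the 50 dominant, 2176 with TPM, 2403 with 0.1 and 265 with 2. In skin, 1367 were above both with a pseudocount of 2 and 1406 with a minimum of 100 reads, and 1643 were below both with TPM, 2436 with 0.1 and 433 with 2. A higher minimum tests fewer assembled genes, and a larger pseudocount pulls faint transcripts toward no difference. Each minimum also has TMM factors computed on its own assembled genes. For the 15099 with 100 or more reads, these gave 1154 above both epithelia and 298 below both in receptor cells. The TMM factors of the reported counts gave 1097 and 342 there. A minimum of 1 read tested 134758 assembled genes instead of 34239. The pseudocount of 0.5 CPM places those with few reads close to no difference. For all other changes the cause was not tested. The 4 assembled genes given by identifier were chosen for large differences, so a change of direction was unlikely from the start. For these 4, 0 of 28 log2 differences changed direction. The 2 lower ones were outside their counting interval before any change, since the pseudocount pulls them in, and account for 12 of the 14 values counted as outside it. The other 2 are those of the higher ones with a pseudocount of 2. Not among the 14 is c131483_g1 with TPM, whose log2 difference of 11.95 lies just above the interval end of 3908-fold against canals.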

Other observations

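Assembled genes that share the part of the identifier before "_g" belong to 1 assembly cluster. The 1857 higher assembled genes fell into 1765 clusters and the 442 lower ones into 436. In 9 of the 1765 clusters, 1 member was at least 4-fold above both epithelia in receptor cells and another at least 4-fold below both. In 140 of the 1765, a member at least 4-fold above both stood beside another within 2-fold of both. Of the 1857, 498 were in clusters of more than 1 assembled gene, the only clusters that can show either pattern. Of all 34239 tested, 8066 shared a cluster with another tested one, and 30.1% were within 2-fold of both. Whether the 9 and the 140 differ from what these shares give was not tested.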
